A study of Mus musculus with 6 samples.

Results

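The inner mitochondrial membrane is shaped by a small set of scaffold proteins and kept in order by membrane-bound proteases. The levels of 10 genes that encode these proteins, of 55416 genes in the table, were examined in primary mouse chondrocytes after knockdown of Pkm2. The genes were taken by name: Immt, Chchd3, Chchd6, Apoo and Apool, which encode subunits of the mitochondrial contact site and cristae organising system (MICOS), Samm50, which encodes its outer membrane partner, the proteases Oma1, Yme1l1 and Afg3l2, and the prohibitin Phb2. They were chosen with earlier results of these data known. All 10 were expressed above the filter on low counts, so none was lost. RNA sequencing compared chondrocytes transfected with a control siRNA (siNC, n = 3 libraries) with chondrocytes transfected with an siRNA against Pkm2 (siPkm2, n = 3 libraries), to learn what the M2 form of pyruvate kinase does in these cells. Per the labels both groups were cultured from neonatal mouse knee joints, in the same serum-containing medium, whereas the study's general culture methods describe adult mice, so the age of the donors is uncertain. The titles name all 3 knockdown libraries siPKM2, while their genotype labels read PKM2, PKM3 and PKM4 knockdown, and they were grouped by title. Strain and number of donor animals were not given in the sources used here. Library RNA came from whole cultures, so fewer cells of a type and less RNA per cell cannot be told apart.

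Cristae are folds of the inner membrane that carry the respiratory chain and the ATP synthase, and each opens to the space between the membranes through a narrow crista junction. MICOS sits at that junction: MIC60, the product of Immt, anchors it and binds SAM50 in the outer membrane, MIC19 and MIC25 (Chchd3 and Chchd6) attach to MIC60, and MIC26 and MIC27 (Apoo and Apool) belong to the subcomplex built around MIC10. OMA1 and YME1L cut the fusion protein OPA1, AFG3L2 forms the m-AAA protease on the matrix side, and prohibitins form ring-like scaffolds that hold this protease and the lipids around it.

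The libraries held between 22317065 and 25691096 estimated counts, and mitochondrially encoded genes took 1.11% to 1.58% of them. Pkm was lower in every siPkm2 library, at 336, 541 and 309 CPM (counts scaled for library size) in replicates 1, 2 and 3 against 2335, 2746 and 1674 in siNC, a 5.69-fold difference (edgeR quasi-likelihood test, adjusted p = 0.0738, or 0.00932 with a replicate block). The table has 1 row for Pkm and does not separate its M1 and M2 transcripts. All 10 chondrocyte markers reached 1 TPM (a level scaled for library size and transcript length) in at least 1 library. Their summed level was 4292 TPM in siNC replicate 2 and 5726 TPM in siPkm2 replicate 2, against 16269 to 20858 TPM in the other 4 libraries. The 6 macrophage markers summed to 99.1 and 58.7 TPM in those 2 libraries and to 9.19 to 20.7 TPM in the others, but Cd68 alone made up 92.8 and 53.4 TPM of the first 2 sums. Lyz2 lay between 2.74 and 5.44 TPM in all 6 libraries without such a difference, and Ptprc, Adgre1 and Fcgr1 were at 0.1 TPM or less. Summed synovial fibroblast markers lay at 140 to 403 TPM in siNC and 264 to 499 TPM in siPkm2, with Prg4 and Pdpn higher in siPkm2 in 3 of 3 pairs and Thy1 and Pdgfra lower in 3 of 3. Osteoblast markers summed to 23.8 to 288 TPM in siNC and 15.0 to 106 TPM in siPkm2. Interferon-stimulated genes summed to 41.8, 1988 and 75.6 TPM in siNC and to 1355, 3423 and 956 TPM in siPkm2. Muscle markers summed to at most 5.92 TPM in siNC and 7.39 TPM in siPkm2. No marker was at 0 in all 6 libraries, and no endothelial marker reached 1 TPM in any. The part that these differences play in the levels below was not tested. The numbers of genes that passed the blocked fit, for the 10, the wider pathway and all genes, are therefore given with and without pair 2. The other counts hold all 3 pairs unless a library is named as left out.

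Levels of different genes were compared per length, in TPM. In siNC cells Phb2 stood highest, at 148 ± 1.29 TPM (SD, n = 3), and Oma1 lowest, at 9.37 ± 0.890 TPM. Between them came Immt (64.7 ± 4.40 TPM), Chchd3 (57.6 ± 14.1 TPM), Yme1l1 (43.5 ± 2.83 TPM), Afg3l2 (34.8 ± 10.9 TPM), Samm50 (26.2 ± 2.63 TPM), Chchd6 (25.3 ± 7.81 TPM), Apool (22.1 ± 6.14 TPM) and Apoo (21.6 ± 6.96 TPM). Phb2 and Oma1 were separated from their neighbours in every siNC library. The ranges of Immt and Chchd3, of Chchd3 and Yme1l1, of Yme1l1 and Afg3l2, of Afg3l2 and Samm50, and of the last 4 genes overlapped. In siPkm2 cells the ends of the order were the same, with Phb2 at 185 ± 12.9 TPM and Oma1 at 7.45 ± 1.21 TPM.

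After Pkm2 knockdown, Chchd3 and Phb2 were higher and Chchd6 and Samm50 were lower, in the test within replicate pairs. That test was an alternative to the main fit, which did not use the pairs and passed none of the 10 genes. Chchd6 differed by more than 2-fold in counts (log2 fold change -1.13), but by -0.52 on the log2(TPM + 1) scale, where its groups overlapped and it did not pass. The calls of Chchd3, Samm50 and Phb2 were made with the replicate pairs only, and that of Chchd6 also by DESeq2 without them. Libraries with the same replicate number deviated from their group means together, so the number was added to the edgeR quasi-likelihood fit as a block. With the block, 4 of 10 genes passed an adjusted p of 0.05 (Benjamini-Hochberg over 15269 genes), 2 higher and 2 lower, where 23.1% of all genes passed (12.3% higher and 10.8% lower). Past a fold of 2 as well stood 1 of the 10, Chchd6, and 5.83% of all genes. Without the block none of the 10 passed, nor did any gene in the table (0%), and 2 of 10 had an unadjusted p under 0.05 (Chchd6 and Phb2), where 17.6% of all genes did. DESeq2 without a block passed 1 of the 10, Chchd6, and 5.38% of all genes. On the log2(TPM + 1) scale, limma passed none of the 10 and 0.00655% of all genes without the block, and 1 of the 10, Phb2, and 15.8% of all genes with it. The median log2 fold change of the 10 genes was -0.01, beside -0.02 over all genes tested, with 5 values above 0 and 5 below. The groups did not overlap for 4 genes, 1 higher and 3 lower, where 24.3% of all genes did not overlap (12% higher and 12.3% lower). All pairs ran in 1 direction for 6 of the 10 genes, 3 higher and 3 lower, where 61.1% of all genes did so (30.5% higher and 30.6% lower). Without pair 2, the blocked fit passed 5 of 10 genes and 39.1% of all genes, and without pair 1 or pair 3 it passed none of either.

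**Figure D1:**
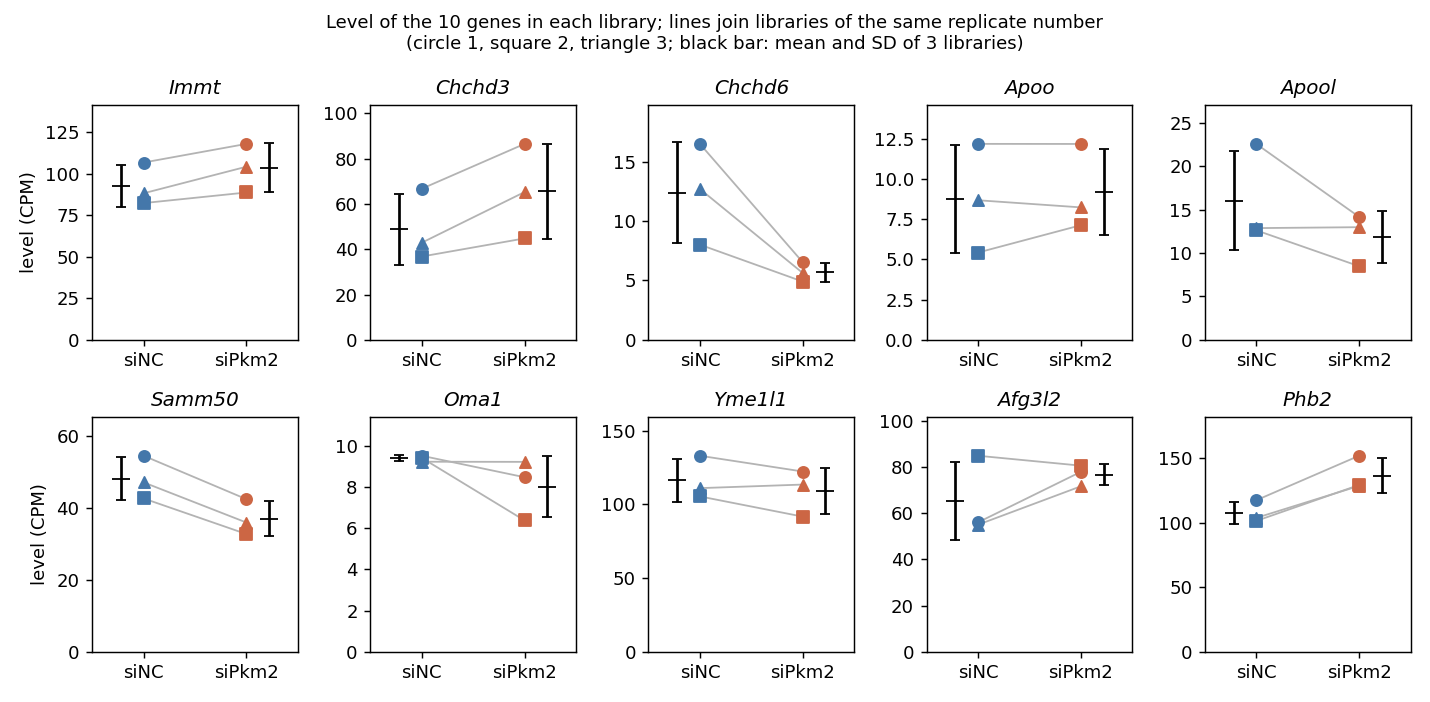
Level of each of the 10 genes in the 6 libraries, in CPM on linear axes that start at 0. Grey lines join the siNC and siPkm2 libraries of one replicate number (circle 1, square 2, triangle 3), and black bars give the mean ± SD of 3 libraries. All 3 lines slope upward for Immt, Chchd3 and Phb2 and downward for Chchd6, Samm50 and, barely in replicate 3, Oma1, while replicate 1 (circle) is highest in both groups for 8 of the genes.

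The plot of levels by library shows how much of the spread followed the replicate number. Replicate 1 held the highest level in siNC for 9 of 10 genes and in siPkm2 for 8. The replicate number accounted for more than 50% of the variance of log2 CPM in 5 genes, with 92.2% for Apoo, 83.4% for Yme1l1 and 77.5% for Immt. The group accounted for more than 50% in 3 genes, Phb2 (73.7%), Chchd6 (72.9%) and Samm50 (61.3%). The exceptions were Oma1, which was highest in replicate 3 of siPkm2, and Afg3l2, which was highest in replicate 2 of both groups. The same counts were not made over all genes, so they do not set these 10 genes apart. The replicate number also has more levels than the group, which by itself allows it a larger part of the variance.

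**Figure D2:**
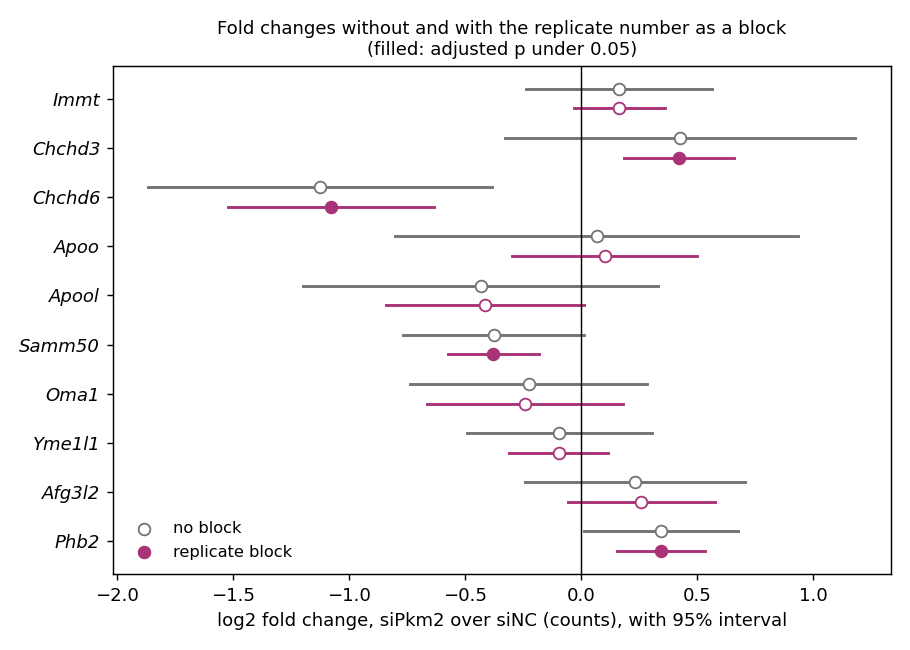
Log2 fold change of each gene, siPkm2 over siNC, from counts, with its 95% interval, without a block (grey) and with the replicate number as a block (purple). Filled points passed an adjusted p of 0.05. The points hardly move between the 2 fits, the intervals shorten with the block, and Chchd3, Chchd6, Samm50 and Phb2 are filled.

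Immt, the anchor of MICOS, was measured at 107, 82.3 and 88.2 CPM in siNC replicates 1 to 3 and at 118, 88.7 and 104 CPM in siPkm2. It was higher in siPkm2 in 3 of 3 pairs, by 0.11 to 0.24 on the log2 scale, while the groups overlapped. Its log2 fold change was 0.17 ± 0.17 (SE, edgeR quasi-likelihood test, adjusted p = 0.665), and with the block it was 0.16 ± 0.08 (adjusted p = 0.175). The interval of the blocked value, -0.03 to 0.36, held 0.

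Chchd3 and Chchd6, which encode the paralogous coiled-coil-helix subunits MIC19 and MIC25, moved in opposite directions. Chchd3 was measured at 66.7, 36.8 and 42.9 CPM in siNC and at 86.5, 44.8 and 65.3 CPM in siPkm2. The groups overlapped because replicate 1 was highest in each, but every pair was higher in siPkm2. Its log2 fold change was 0.43 ± 0.31 without the block (edgeR, adjusted p = 0.536) and 0.42 ± 0.09 with it (adjusted p = 0.0332), a 1.34-fold rise. Chchd6 was measured at 16.5, 8.01 and 12.7 CPM in siNC and at 6.53, 4.90 and 5.62 CPM in siPkm2. No siPkm2 library reached the lowest siNC library. Its log2 fold change was -1.13 ± 0.31 (edgeR, adjusted p = 0.161), a 2.18-fold difference, and -1.08 ± 0.18 with the block (adjusted p = 0.0181), with a 95% interval from -1.52 to -0.63. DESeq2 gave an adjusted p of 0.0365 without a block. The smallest drop, -0.71, was in pair 2, and the others were -1.34 and -1.18.

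The size of the Chchd6 difference depended on the unit. In TPM its levels were 31.9, 16.7 and 27.4 in siNC and 15.1, 14.6 and 21.4 in siPkm2. They were lower in 3 of 3 pairs but overlapped, and the difference on the log2(TPM + 1) scale was -0.52 (limma, adjusted p = 0.409, or 0.118 with the block). A count divided by its TPM is proportional to the transcript length over which the authors' method spread the reads. Scaled to the annotated lengths in the table, that implied length of Chchd6 was 893 ± 34.7 bases in siNC and 610 ± 137 bases in siPkm2 (SD, n = 3). It was shorter in every siPkm2 library (740, 622 and 467 bases against 876, 933 and 871). The log2 ratio was -0.55, while 0.748% of 15100 genes had a lower one, and among the other 9 genes it lay between -0.05 and 0.05. Whether this reflects another mix of Chchd6 transcripts or the assignment of few reads among them was not tested.

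**Figure D3:**
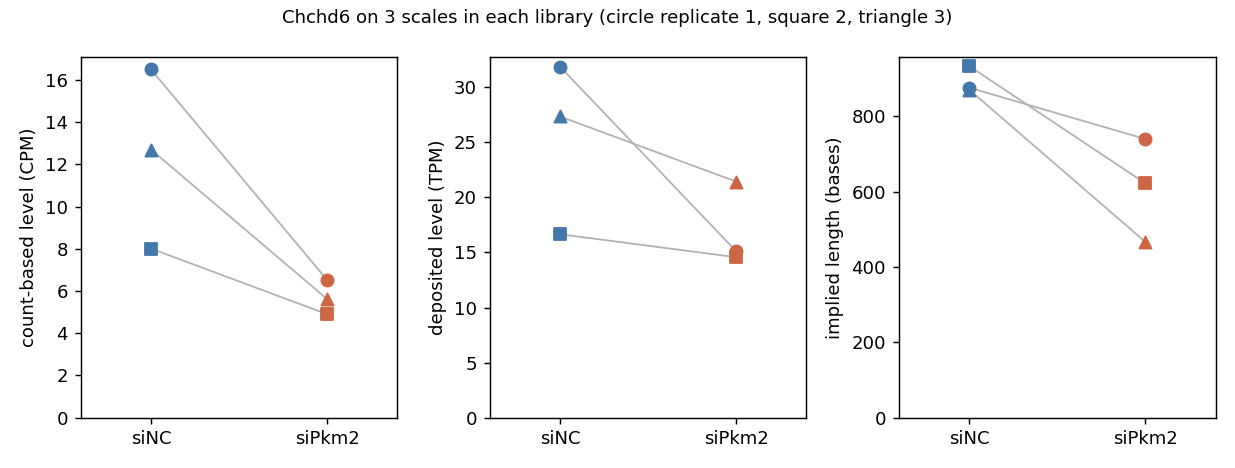
Chchd6 in each library as CPM (left), deposited TPM (middle) and implied length in bases (right), with axes that start at 0 and lines joining libraries of one replicate number (circle 1, square 2, triangle 3). The CPM groups are separate, the TPM groups overlap (siPkm2 replicate 3 at 21.4 TPM against siNC replicate 2 at 16.7 TPM), and the implied length is below 750 bases in the 3 siPkm2 libraries only.

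Apoo and Apool encode MIC26 and MIC27, related proteins of the apolipoprotein O family. Apoo was measured at 12.2, 5.42 and 8.67 CPM in siNC and at 12.2, 7.12 and 8.23 CPM in siPkm2. The groups overlapped, and its log2 fold change was 0.07 ± 0.36 (edgeR, adjusted p = 0.949), with an interval from -0.80 to 0.94. Apool was measured at 22.6, 12.6 and 12.9 CPM in siNC and at 14.2, 8.48 and 13.0 CPM in siPkm2. It was lower in pairs 1 and 2, by 0.67 and 0.57 on the log2 scale, and differed by 0.01 in pair 3. The log2 fold change was -0.43 ± 0.32 (edgeR, adjusted p = 0.532), or -0.41 ± 0.17 with the block (adjusted p = 0.131). Apoo counts were fractional in 4 of 6 libraries, and its pseudogene Apoo-ps held 0 to 33.9 counts a library, so reads may be divided between them.

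Samm50 encodes the core of the sorting and assembly machinery, the outer membrane contact of MICOS. It was measured at 54.6, 42.7 and 47.2 CPM in siNC and at 42.5, 32.8 and 36.0 CPM in siPkm2. The siPkm2 libraries all lay under the siNC libraries, and the 3 pairs differed by -0.36, -0.38 and -0.39 on the log2 scale. The log2 fold change was -0.38 ± 0.16 (edgeR, adjusted p = 0.295), and with the block -0.38 ± 0.08 (adjusted p = 0.0280), a 1.30-fold fall. In TPM the groups were also separate, at 23.2 to 28.1 in siNC and 19.2 to 20.3 in siPkm2, and the blocked limma test on log2(TPM + 1) gave an adjusted p of 0.0746.

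Because siRNAs can act on other transcripts through the seed, guide bases 2 to 8, the 3′ untranslated regions of the 10 genes were searched for the complement of the siPkm2 #3 seed. The study's supplement names that siRNA as the selected one, but no source ties a number to the sequenced cultures. The first line below is its guide strand, 5′ to 3′, with the seed in capitals. The other lines are DNA-sense target windows, 5′ to 3′, with the 7 matching bases in capitals, shown for the members that hold a match and for 3 MICOS or inner membrane genes described further on.
siPkm2 #3 guide: uGUUUCUCcagacagcaugtt
Chchd6: gctgccatgctcGAGAAACagtatgtgc
Samm50: ggcagcttggatGAGAAACaggcatctc
Micos10: agcgggaggaaaGAGAAACcatgtttat
Letm1: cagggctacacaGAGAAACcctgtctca
Stoml2: tcctgtcgtcaaGAGAAACctcggctgt

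The match in Chchd6 lies at chr6:89383212-89383218 on the minus strand (GRCm38), at base 125 of the 197-base 3′ untranslated region of GENCODE M21. That in Samm50 lies at chr15:84214197-84214203 on the plus strand, at base 26 of 3096. In both, the base after the match pairs with guide base 1, which gives an unbroken run of 8 paired bases. No other member held a match, so 2 of 10 did, while 16.4% of 13202 tested genes with an annotated 3′ untranslated region held one. Both were lower with the block, and of the 8 without a match 2 were higher and none lower at that threshold. Over all tested genes with a match, 23.2% of 2165 were lower with the block and 7.58% higher, beside 9.73% and 14.9% of the 11037 genes without one. These shares were not adjusted for the length of the untranslated region, and 2 genes are too few to compare with them. Outside the 10 genes, matches stood in genes that were lower and in genes that were higher. Micos10 (chr4:139103966-139103972, minus strand) was lower, whereas Letm1 (chr5:33740527-33740533, minus strand) and Stoml2 (chr4:43027858-43027864, minus strand) were higher. A match describes the letters only, and binding by the siRNA was not tested.

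The 3 proteases did not pass the test in either fit. Oma1, the stress-activated metalloprotease that cuts OPA1, was measured at 9.53, 9.43 and 9.24 CPM in siNC and at 8.48, 6.38 and 9.23 CPM in siPkm2. The groups were separate by less than 0.01 CPM, since replicate 3 was nearly equal in both. In TPM they were separate at 8.83 to 10.4 in siNC and 6.09 to 8.39 in siPkm2. The blocked limma test on log2(TPM + 1) gave an adjusted p of 0.268. The log2 fold change was -0.23 ± 0.21 (edgeR, adjusted p = 0.635, or 0.327 with the block). Yme1l1, the i-AAA protease that faces the intermembrane space, was measured at 133, 105 and 111 CPM in siNC and at 122, 91.6 and 113 CPM in siPkm2. The groups overlapped, and the log2 fold change was -0.09 ± 0.17 (edgeR, adjusted p = 0.824), with a blocked interval from -0.31 to 0.12.

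Afg3l2, the m-AAA subunit, was measured at 56.1, 85.0 and 55.1 CPM in siNC and at 78.0, 80.7 and 71.7 CPM in siPkm2. The siNC library of replicate 2 stood above all siPkm2 libraries, and the other siNC libraries stood below them. The estimate was 0.23 ± 0.20 on the log2 scale (edgeR, adjusted p = 0.593) and 0.26 ± 0.13 with the block (adjusted p = 0.185). Pair 2 differed by -0.07 and pairs 1 and 3 by 0.48 and 0.38, and without pair 2 the blocked value was 0.42 (adjusted p = 0.00863). The libraries of pair 2 were those with the low chondrocyte marker sums.

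Phb2 encodes one of the prohibitins that assemble with the m-AAA protease. It was measured at 117, 101 and 104 CPM in siNC and at 152, 129 and 129 CPM in siPkm2. Every siPkm2 library was above every siNC library, with pair differences of 0.37, 0.35 and 0.31. The log2 fold change was 0.35 ± 0.14 (edgeR, adjusted p = 0.266), and with the block 0.34 ± 0.08 (adjusted p = 0.0319), a 1.27-fold rise. In TPM the groups were separate as well (147 to 149 against 175 to 200), and the blocked limma test gave an adjusted p of 0.0498. Phb2 counts were fractional in 6 of 6 libraries, those of Immt in 4, Afg3l2 in 2 and Samm50 in 1, so some of their reads may be divided with other features.

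Ratios within a library need no scaling between libraries, and 4 were compared between the groups. With 3 against 3 libraries an exact permutation test cannot go below p = 0.1. Chchd6 over Chchd3 in TPM was 0.433, 0.357 and 0.519 in siNC and 0.155, 0.270 and 0.271 in siPkm2. Every siPkm2 library had the lower ratio, 1.92-fold on average (log2 difference -0.94, two-sided exact p = 0.1, adjusted p = 0.267 over 4 ratios), and the difference was -1.50 in counts. Apoo over Apool was higher by 0.56 on the log2 scale (exact p = 0.2, adjusted p = 0.267), with the ratio lower in 1 of 3 pairs. Oma1 over Yme1l1 differed by -0.16 (exact p = 0.2, adjusted p = 0.267) and Afg3l2 over Yme1l1 by 0.40 (exact p = 0.3, adjusted p = 0.3), and the groups of each overlapped.

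The 7 MICOS subunit transcripts, the 5 above with Micos10 and Micos13, were set against their own sum in TPM. Micos10, which encodes the membrane-bending core subunit MIC10, made up 22.7 ± 4.89% of the sum in siNC and 10.7 ± 1.00% in siPkm2 (SD, n = 3). Chchd3 went from 11.2 ± 0.427% to 17.3 ± 3.21% and Immt from 12.9 ± 2.05% to 16.4 ± 0.308%. Apoo, at 4.14 ± 0.588% and 5.19 ± 0.890%, was the fourth transcript whose shares did not overlap between the groups. Its nearest libraries almost met, at 4.59% in siNC replicate 3 and 4.65% in siPkm2 replicate 3, and its levels in CPM overlapped. No such count was made for other sets of genes. Micos13, which encodes the subunit bridging the MIC60 and MIC10 subcomplexes, held 40.0 ± 5.97% and 42.9 ± 3.86%. Chchd6 held 4.86 ± 0.744% and 3.89 ± 0.828%, and its shares overlapped, as did those of Apool (4.29% and 3.65%). Shares of one sum are tied to each other, so a lower share of Micos10 raises the others.

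**Figure D4:**
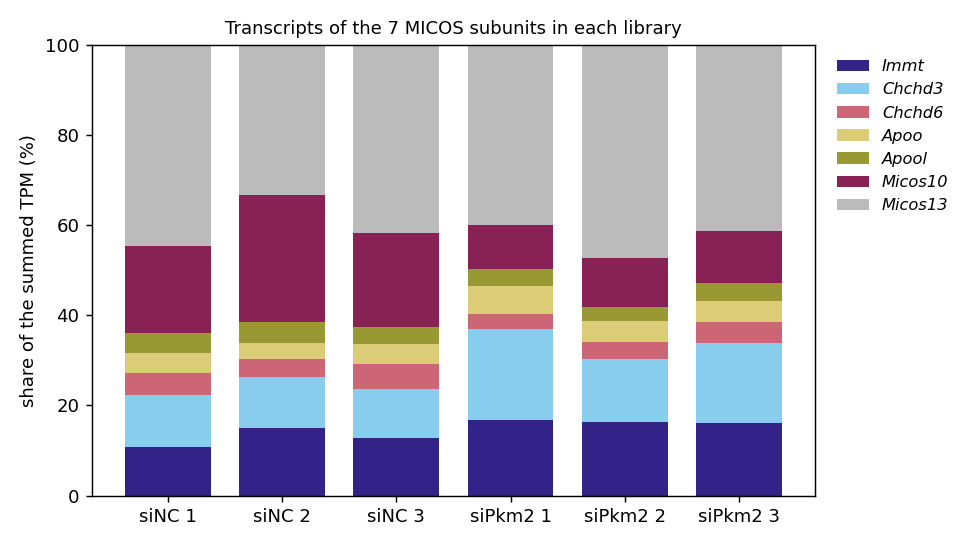
Share of each MICOS subunit in the summed TPM of the 7 subunits, in percent, for each of the 6 libraries. The Micos10 segment spans 19.1% to 28.3% in the siNC libraries and 9.62% to 11.6% in the siPkm2 libraries, while Micos13 is the widest segment in all 6.

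The wider pathway was described by 40 genes in 3 lists. With the block, 12 of 40 passed the adjusted p of 0.05, 8 higher and 4 lower, where 23.1% of all genes passed. Without it none passed by edgeR, 9 had an unadjusted p under 0.05 (17.6% of all genes), and DESeq2 passed 3, Micos10, Chchd10 and Pgam5 (5.38% of all genes). The median log2 fold change of the 40 was 0.11, with 26 values above 0 and 14 below, beside 7341 above and 7928 below over all genes. Without pair 2 the blocked fit passed 17 of 40 and 39.1% of all genes, and without pair 1 or pair 3 it passed none of either.

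Of 19 partners in cristae organisation, 4 were higher and 2 lower with the block, where 12.3% and 10.8% of all genes were, and 13 did not pass. Micos10 was measured at 73.0, 58.7 and 56.0 CPM in siNC and at 28.4, 23.5 and 26.7 CPM in siPkm2, with no overlap. Its log2 fold change was -1.26 (edgeR, adjusted p = 0.0738), and -1.25 with the block (adjusted p = 0.00942). Slc25a46, an outer membrane protein of the carrier family that contacts MICOS and OPA1, was also lower with the block (-0.43, adjusted p = 0.0236). Chchd10, a small intermembrane space protein, was measured at 2.64, 2.14 and 2.32 CPM in siNC and at 18.2, 3.58 and 13.4 CPM in siPkm2. The difference was far smaller in pair 2 than in the others, and its blocked log2 fold change was 2.07 (adjusted p = 0.0278). Higher values of smaller size were found for Atp5l, a subunit at the dimer interface of the ATP synthase (0.54), Letm1, an inner membrane cation exchanger (0.51), and Stoml2, a stomatin-like protein that binds prohibitins and cardiolipin (0.32, adjusted p = 0.0499). Opa1, the inner membrane fusion protein that OMA1 and YME1L cut, was at 58.4 to 63.7 CPM in siNC and 49.6 to 52.3 CPM in siPkm2. Its groups were separate, but its blocked log2 fold change of -0.25 did not pass (adjusted p = 0.0667).

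Of 12 partners of the proteases, 2 were higher and none lower with the block, where 12.3% of all genes were higher and 10.8% lower. Phb, the prohibitin that pairs with Phb2, was measured at 73.0, 66.0 and 64.9 CPM in siNC and at 94.6, 89.4 and 83.9 CPM in siPkm2. The groups were separate in CPM, and its blocked log2 fold change of 0.39 (edgeR, adjusted p = 0.0234) was close in size to that of Phb2. In TPM the Phb groups overlapped, at 104 ± 13.4 in siNC and 108 ± 11.3 in siPkm2 (SD, n = 3), unlike those of Phb2. Replicate 1 of Phb was lower in siPkm2 on that scale (106 against 112 TPM). Ghitm, an inner membrane protein that binds the m-AAA protease, was higher by 0.42 with the block (adjusted p = 0.0423). The lowest values were those of Immp2l and Immp1l, catalytic subunits of the inner membrane peptidase, at -0.22 and -0.04 without the block, and neither passed. Of 10 protease substrates, 2 were higher and 2 lower with the block, beside the same 12.3% and 10.8% of all genes. Pgam5, a phosphatase cut by PARL and OMA1, was higher by 0.68 (adjusted p = 0.0195), and Timm17a, a translocase subunit degraded by YME1L, by 0.33 (adjusted p = 0.0362). Dele1, the stress messenger cut by OMA1, was lower (-0.71, adjusted p = 0.0131), as was Mrpl32, a ribosomal protein matured by the m-AAA protease (-0.45, adjusted p = 0.0429).

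**Figure D5:**
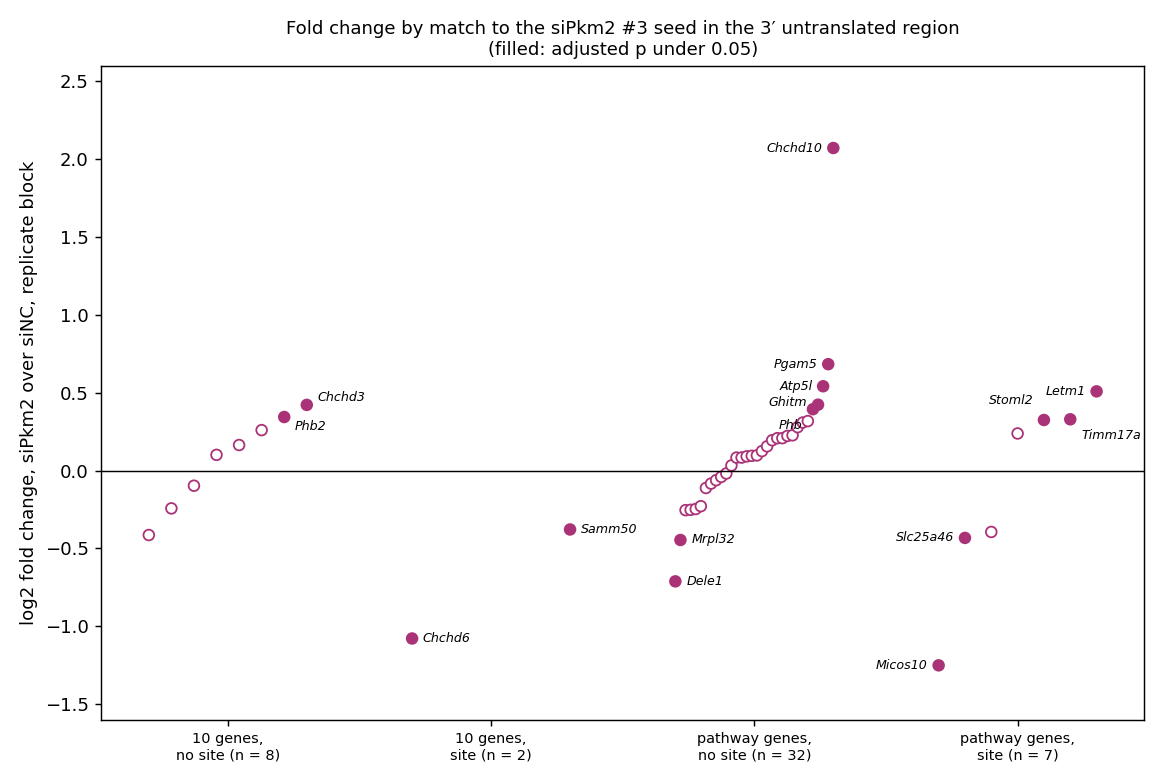
Log2 fold change, siPkm2 over siNC, with the replicate block, of the 10 genes and of the pathway genes with an annotated 3′ untranslated region, split by a match to the siPkm2 #3 seed there. Points are genes in order of their value, and filled, named points passed an adjusted p of 0.05. Both of the 10 genes with a match lie below 0, while the 7 pathway genes with one lie on both sides.

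In the plot by seed match, 7 of 39 pathway genes (17.9%) held a match in the 3′ untranslated region. With the block 2 of these were lower (Micos10 and Slc25a46), 3 were higher (Letm1, Stoml2 and Timm17a) and 2 did not pass (Mtx3 and Afg3l1). Unbroken runs of 9 paired bases, longer than those in Chchd6 and Samm50, stood in Slc25a46, which was lower, and in Timm17a, which was higher. Timm17a held 3 matches. The matches in Letm1 and Afg3l1 share 26 of 28 bases of the window around them.

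Promoters were read from RefSeq (GRCm38.p6, 250 bases before to 50 after the start) for 9 of the 10 genes, all except Afg3l2. Matches were counted by gene for the 9, but by promoter, of which a gene can have several, for all tested genes. The letters CCGGAAG, a core bound by ETS factors, occurred on either strand in 4 of 9 (Chchd3, Immt, Phb2 and Yme1l1), against 16.2% of the promoters of tested genes. The letters GCGCATGC, a core bound by NRF1, and the palindrome TGACGTCA, bound by CREB, occurred in none of the 9, against 4.77% and 2.87%. Of the 4 genes with CCGGAAG, Chchd3 and Phb2 were higher with the block, and Immt and Yme1l1 did not pass.

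The mean profile of the 10 genes, each centred on its own mean log2 CPM, was highest in siNC replicate 1 (0.31) and siPkm2 replicate 1 (0.18) and lowest in siPkm2 replicate 2 (-0.29). The genes outside the lists with the nearest profiles over the 6 libraries were Ndufv1, a flavoprotein subunit of complex I, at a root mean square difference of 0.04 (log2), Cop1, a ubiquitin ligase, also at 0.04, and Kpnb1, a nuclear import receptor, likewise at 0.04.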

How the data were processed

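The authors deposited estimated counts per gene and library, some of them fractional, TPM values for each library and each group mean, and their own comparison of the groups as a fold change (ratio), log2 fold change and p-value per gene, which was not used here. The submitters' processing notes name edgeR and the build mm9. The aligner and counting method are not given in the sources used here, and 94.0% of identifiers were found in GENCODE M21 (GRCm38), from which untranslated regions were taken. Each of the 6 count columns matched 1 library's title.

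Estimated counts were rounded and tested in R 4.3.3 with edgeR 4.0.16 (filterByExpr, TMM, quasi-likelihood test, Benjamini-Hochberg), limma 3.58.1 on log2(TPM + 1) and DESeq2 1.42.0. Levels are TMM-scaled CPM. Across all genes a call took an adjusted p under 0.05 and a fold over 2; for the named lists it was taken at any fold. Same-numbered libraries had correlated deviations from their group means (r of 0.646 to 0.756, other numbers at most 0.158), a pairing seen in the data since the labels do not explain the numbers. No libraries were duplicates: 53.6% to 73.7% of genes differed beyond sampling noise within a group. No source says that replicates were separate cultures or animals, so p-values may cover technical spread only. Depth was alike, and 3 libraries a group limit precision. Alternatives were other scaling factors and filters, DESeq2, the block, each library or pair left out, and TPM. The script was tested on simulated data.

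The 10 genes and the lists were chosen with earlier results of these data known. Named from the lists were genes called in either fit and the 2 highest and 2 lowest of each list. Micos13 was named besides as a MICOS subunit, and Opa1, Mtx3 and Afg3l1 were added after their values were seen. For seed matches, the transcript with the longest 3′ untranslated region stood for its gene.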

Additional observations from a re-analysis of the deposited data

How the results depend on the processing

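Over all genes, 0 passed a fold over 2 and an adjusted p of 0.05 by edgeR without the block (2690 had an unadjusted p under 0.05). With at least 10 counts in every library 3 passed, with upper-quartile factors 3, with no filter 9, by DESeq2 430, with the replicate block 890 and with the block without pair 2 1639. Leaving out 1 library gave 0 to 105, the latter without siNC replicate 2. Of the 10 genes, DESeq2 passed 1, the block 4 and the block without pair 2 5, and leaving out 1 library without the block passed 0. Of the 40 pathway genes these were 3, 12, 17 and 0 to 1 (Micos10 without siNC replicate 2). The median log2 fold change of the 10 genes ran from -0.19 without siPkm2 replicate 1 to 0.11 without siPkm2 replicate 2. The Pkm difference of -2.51 (edgeR, adjusted p = 0.0738) passed by DESeq2 (-2.50, adjusted p = 4.82e-11), with the block (-2.53, adjusted p = 0.00932), with the block without pair 2 (-2.63, adjusted p = 9.69e-05) and without siNC replicate 2 (-2.34, adjusted p = 0.0495), and leaving out 1 library gave -2.80 to -2.34. Apoo changed sign with upper-quartile factors (-0.0040), with the block without pair 2 (-0.046), without siNC replicate 2 (-0.18) and without siPkm2 replicate 1 (-0.20, the lowest of -0.20 to 0.39 over the libraries left out), and Yme1l1 without siNC replicate 1 (0.02) and without siPkm2 replicate 2 (0.021, the highest of -0.19 to 0.021). None of these passed the test, and the cause was not tested. The other 8 genes kept their direction under every alternative. The block changed no other call. At 123 to 412 counts a library, Chchd6 was more thinly measured than Phb2 at 2368 to 3321.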

Other observations

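The seeds of the other 2 Pkm2 siRNAs of the study were also matched to the 3′ untranslated regions. The seed of siPkm2 #1 had a match in 4 of the 10 genes (Immt, Apool, Samm50 and Afg3l2), where 10.9% of tested genes had one. Of those 14.7% were lower and 12.9% higher with the replicate block, beside 11.6% and 13.8% of genes without a match. That of siPkm2 #2 had a match in 1, Oma1, where 15.9% had one. Of those 13.5% were lower and 12.5% higher, beside 11.6% and 13.9% of genes without a match. Of these 5 genes, Samm50 was lower with the block and the other 4 did not pass. Gene ontology terms in the table placed 8 of the 10 genes under cristae formation, all except Yme1l1 and Phb2, and 3 under metalloendopeptidase activity.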
